A study of Mus musculus with 18 samples.

Results

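The miR-30 family is a set of mature miRNAs cut from 6 hairpins at 3 places in the mouse genome. Of the 1966 miRNAs in the deposited table, the 7 described here were taken by name: the 5p strands mmu-miR-30a-5p, mmu-miR-30b-5p, mmu-miR-30c-5p, mmu-miR-30d-5p and mmu-miR-30e-5p, and the 3p strands mmu-miR-30a-3p and mmu-miR-30e-3p. The prefix mmu, for mouse, is left out below. All 7 reached 1 CPM (reads scaled to the library total times its TMM factor, a correction for library composition) in 3 or more libraries and are among the 726 miRNAs tested. Their levels were compared between normal adrenal glands and neuroblastoma tumors of transgenic mice.

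Small RNA was sequenced from the adrenal glands of 3 wildtype mice (AG, labelled CRE -), from 7 R26 IGF2BP1 tumors (TI) and from 8 R26 IGF2BP1/MYCN tumors (TIM), 18 libraries in all. Of the TI tumors, 6 carried the IGF2BP1 transgene at both Rosa26 alleles (IGF2BP1 +/+, CRE +) and 1 at a single allele (IGF2BP1 +/-, CRE +), while the TIM tumors carried IGF2BP1 together with MYCN (IMP1/MYCN, CRE +). Per the study's genotyping the TIM mice had no wildtype Rosa26 allele, which leaves 1 allele for each transgene. By genotype, most TI tumors thus came from mice with more IGF2BP1 transgene alleles than the TIM mice. Transgene copies in the tumor tissue were not examined here. In the tumor mice a Dbh-driven iCRE recombinase switched on the transgenes behind a stop cassette, in cells of the sympatho-adrenal lineage, and neither transgene has its native 3' untranslated region. AG is whole adrenal gland, so a tumor is compared here with a tissue of several cell types. By the labels, 1 TI and 2 TIM tumors were adrenal and 1 TIM tumor lay at the spine. The labels give no ages, and the deposited columns name the group of a library but not its mouse, so the single-allele tumor and the tumor sites cannot be tied to a value. Libraries are numbered below by column order, as names only.

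A miRNA acts as a guide within an Argonaute protein, where its seed, the bases 2 to 8, pairs with sites in messenger RNAs and lowers their stability and translation. In the miR-30 hairpins the 5p strand is the main guide and the 3p strand is the less abundant partner that is mostly discarded. The 5p strands share a seed and so have overlapping targets. The family is abundant in many differentiated tissues, is known for its high level in endothelium, kidney and heart, and has described targets in epithelial to mesenchymal transition, autophagy and Notch signalling.

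The mature sequences below are those of RefSeq for GRCm38.p6, printed 5' to 3', and the capitals mark the seed. They are shown because the seed defines the family and because the strands differ by few bases outside it. RefSeq gave a sequence for 5 of the 7 members, and miR-30b-5p and miR-30d-5p are the others.
miR-30a-5p: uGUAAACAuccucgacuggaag
miR-30c-5p: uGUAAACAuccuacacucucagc
miR-30e-5p: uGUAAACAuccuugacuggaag
miR-384-5p: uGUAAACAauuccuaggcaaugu
miR-30a-3p: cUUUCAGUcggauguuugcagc
miR-30e-3p: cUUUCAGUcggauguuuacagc

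The seed GUAAACA was found in 4 of the 1675 mature miRNAs of the table that had a sequence. These were miR-30a-5p, miR-30c-5p, miR-30e-5p and miR-384-5p, a miRNA with the same seed that is not counted in the family by name. miR-30a-5p and miR-30e-5p differ by 1 substitution, C13U, with positions counted from the 5' end. miR-30a-5p shares its first 12 bases with miR-30c-5p and its first 8 with miR-384-5p. The 3p strands of miR-30a and miR-30e have another seed, UUUCAGU, found in those 2 of the 1675 miRNAs with a sequence, and they differ by G18A. How the authors assigned reads that match several miRNAs is not given in the sources used here, so reads of a strand with 1 mismatch may have been exchanged between miR-30a and miR-30e, and this was not tested.

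The hairpins lie in 3 pairs. In GRCm38.p6 (mm10), Mir30a is at chr1:23272269-23272339 and Mir30c-2 at chr1:23291701-23291784, both on the plus strand with 19361 bases between them and with no other RefSeq gene overlapping. Mir30e at chr4:120772606-120772697 and Mir30c-1 at chr4:120769534-120769622 are 2983 bases apart in an intron of Nfyc, on the strand of that gene, which encodes a subunit of the transcription factor NF-Y. Mir30d at chr15:68341208-68341289 and Mir30b at chr15:68337415-68337510 are 3697 bases apart on the minus strand, again with no overlapping RefSeq gene. miR-30c-5p is made from both Mir30c-1 and Mir30c-2, so its reads combine 2 of the 3 loci. Mir384, the source of miR-384-5p, is at chrX:105344282-105344369.

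By the recovered reads the AG libraries were the deepest, with 21644743 to 23332704 miRNA reads, while TI libraries had 11802837 to 21268124 and TIM libraries 11641696 to 23435621. One miRNA, miR-148a-3p, took 4.19% to 6.94% of these reads in AG, 2.29% to 61.9% in TI and 6.53% to 44.2% in TIM. The TMM factor was 0.700 to 0.934 for TI and 0.802 to 1.85 for TIM libraries, so every CPM value below depends on the scaling, and results under other scalings stand beside them. Of 4 neuroendocrine and neuronal markers (miR-375-3p, miR-7a-5p, miR-124-3p and miR-9-5p), 0 were absent from a group, and they summed to 45274 to 108210 CPM in AG, 32418 to 250110 CPM in TI and 43408 to 247550 CPM in TIM, mostly as miR-7a-5p. Single markers did not all follow the sum: miR-9-5p was at 362 to 582 CPM in AG, 3748 to 13089 CPM in TI and 4330 to 18823 CPM in TIM, and miR-124-3p at 2.17 to 7.08, 34.1 to 492.8 and 56.2 to 728 CPM. The other 2 overlapped between the groups. In AG, TI and TIM, miR-375-3p was at 8915 to 30587, 1427 to 38518 and 405 to 18143 CPM. For miR-7a-5p the ranges were 35994 to 81124, 24302 to 207810 and 31408 to 211250 CPM.

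The family was abundant in normal adrenal gland and lower in every tumor library. Together the 7 members held 4.46% to 5.71% of the miRNA reads in AG, 0.748% to 1.62% in TI and 0.921% to 2.26% in TIM. On the CPM scale their sum was 52888 ± 7646 in AG (SD, n = 3), 13914 ± 3511 in TI (SD, n = 7) and 12992 ± 3119 in TIM (SD, n = 8), and no tumor library reached the lowest AG library. Since a low share can come from a rise of another miRNA, the sum was also taken as a share of the reads other than miR-148a-3p, and was then 5.32% ± 0.74 in AG (SD, n = 3), 1.98% ± 0.38 in TI (SD, n = 7) and 1.97% ± 0.42 in TIM (SD, n = 8). In bulk tissue, fewer cells of a type that contains these miRNAs and less miRNA per cell cannot be told apart.

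Of the 7 members, 6 fell in TI and 6 in TIM against AG (limma on log2(CPM + 1), Benjamini-Hochberg adjusted p under 0.05 over the 726 miRNAs tested), and 0 rose. In the same test 29.3% of all miRNAs tested passed as lower for TI and 25.9% for TIM, and 55.8% and 51.4% counting both directions. The exception in both was miR-30b-5p. The median log2 fold change of the 7 members was -1.81 in TI and -1.75 in TIM, beside -0.01 and 0.18 for all miRNAs tested. The tests in TI and TIM share the 3 AG libraries, so their like results are not independent. Every library of both tumor types was below every AG library for the same 6 members, as was the case for 24.4% of all miRNAs tested in TI and 22% in TIM.

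**Figure D1:**
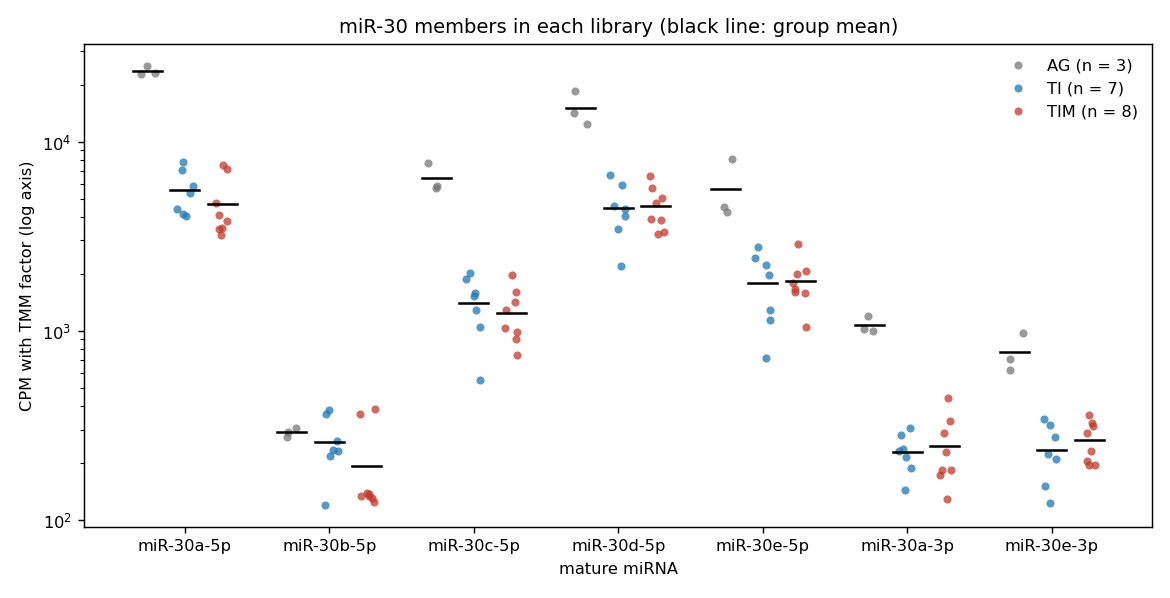
Level of each miR-30 member in each library, in CPM with the TMM factor on a log axis, with 1 point per library, in grey for AG (n = 3), blue for TI (n = 7) and red for TIM (n = 8), and a black line at the group mean. For 6 members all tumor points lie below the AG points, while for miR-30b-5p the tumor points lie on both sides, with 6 of the 8 TIM points between 124 and 138 CPM.

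The most abundant member was miR-30a-5p, the guide strand of Mir30a. Its level was 25119, 23078 and 22878 CPM in the 3 AG libraries, from 4066 to 7763 CPM in TI with a median of 5329, and from 3189 to 7504 CPM in TIM with a median of 3964. The groups of tumors lie far below the narrow AG range and overlap each other. The log2 fold change was -2.14 in TI (SE 0.30, limma adjusted p = 1.2e-05), which is 4.42-fold lower, and -2.41 in TIM (SE 0.30, limma adjusted p = 3.3e-06), which is 5.33-fold lower.

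miR-30c-5p, the guide that comes from both the Mir30a and the Mir30e locus, fell by as much. It was at 7691, 5821 and 5669 CPM in AG, from 547 to 2014 CPM in TI with a median of 1521, and from 747 to 1973 CPM in TIM with a median of 1158. The highest tumor library was far under the lowest AG library. Against AG the change on the log2 scale was -2.27 in TI (SE 0.37, limma adjusted p = 5.5e-05) and -2.41 in TIM (SE 0.36, limma adjusted p = 2.4e-05).

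miR-30d-5p, the main guide of the chromosome 15 pair, was the next most abundant member after miR-30a-5p. It was at 18503, 14244 and 12449 CPM in AG, from 2195 to 6644 CPM in TI with a median of 4424, and from 3247 to 6611 CPM in TIM with a median of 4319. The AG libraries spread more than for miR-30a-5p, but even the lowest stood above all tumors. On the log2 scale the change was -1.81 in TI (SE 0.32, limma adjusted p = 0.00012) and -1.75 in TIM (SE 0.31, limma adjusted p = 0.00014).

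miR-30e-5p, the guide from the Nfyc intron, had the widest spread among the AG libraries relative to its mean. It was at 8080, 4500 and 4248 CPM in AG, from 721 to 2780 CPM in TI with a median of 1973, and from 1050 to 2874 CPM in TIM with a median of 1719. The first AG library stands apart from the other 2, which also lie above every tumor library. In log2 units the change was -1.71 in TI (SE 0.39, limma adjusted p = 0.0013) and -1.60 in TIM (SE 0.38, limma adjusted p = 0.0020), and without the first AG library it was -1.42 in TI (limma adjusted p = 0.0185) and -1.31 in TIM (limma adjusted p = 0.029).

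The partner strands were lower along with their guides. miR-30a-3p was at 993, 1018 and 1197 CPM in AG, from 143 to 307 CPM in TI with a median of 231, and from 128 to 439 CPM in TIM with a median of 206. miR-30e-3p was at 971, 619 and 713 CPM in AG, from 123 to 343 CPM in TI with a median of 224, and from 195 to 361 CPM in TIM with a median of 260. Both were below the AG range in all 15 tumor libraries. For miR-30a-3p the log2 fold change was -2.25 in TI (SE 0.34, limma adjusted p = 2.3e-05) and -2.22 in TIM (SE 0.33, limma adjusted p = 2.4e-05), and for miR-30e-3p it was -1.76 in TI (SE 0.33, limma adjusted p = 0.00022) and -1.55 in TIM (SE 0.32, limma adjusted p = 0.00066).

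miR-30b-5p, the guide of the hairpin next to Mir30d, did not follow the others. It was at 274, 291 and 306 CPM in AG, from 120 to 382 CPM in TI with a median of 233, and from 124 to 383 CPM in TIM with a median of 136. In TI, 5 libraries were below AG and 2 above it, and in TIM 6 were below and 2 above. No library of any group had a value between 138 and 218 CPM, with 1 TI and 6 TIM libraries under that gap. Its log2 fold change was -0.25 in TI (SE 0.41, 95% interval -1.10 to 0.60, limma adjusted p = 0.63) and -0.75 in TIM (SE 0.40, 95% interval -1.59 to 0.09, limma adjusted p = 0.13). Whether miR-30b-5p passed in TIM depended on a single library. Without the second TIM library, the highest of its group, its log2 fold change was -0.92 and it passed (limma adjusted p = 0.043). The value in TI turned to 0.27 (limma adjusted p = 0.66) when the library totals were taken without miR-148a-3p.

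**Figure D2:**
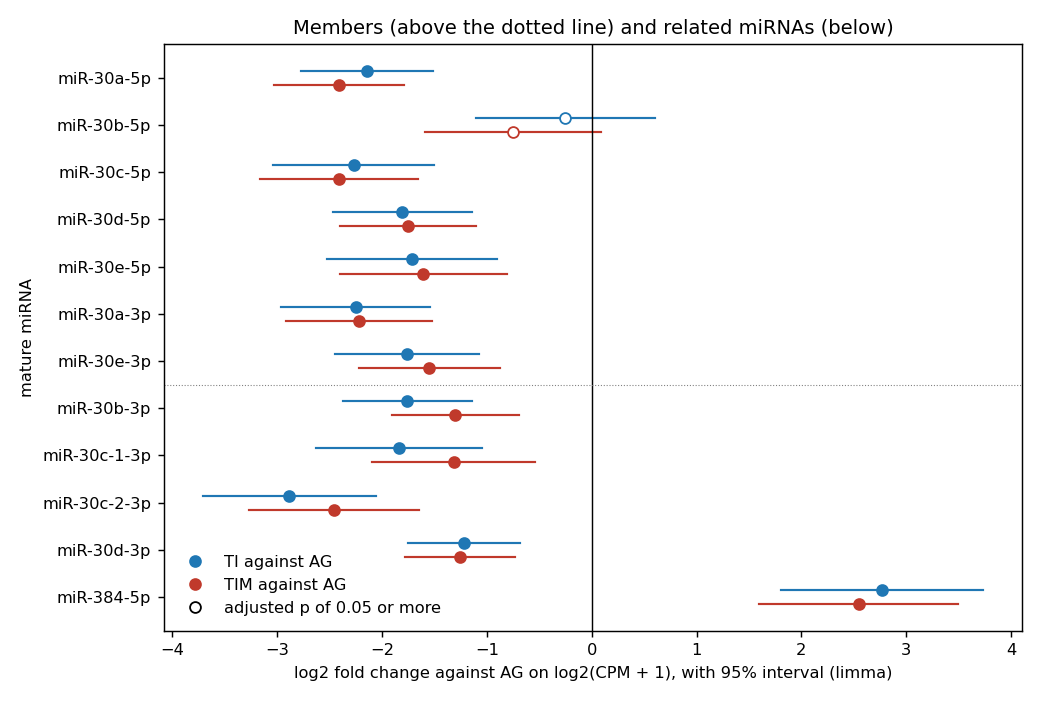
log2 fold change of TI (blue) and TIM (red) against AG on log2(CPM + 1), with the 95% interval from limma as a bar, for the 7 members above the dotted line and 5 related miRNAs below it. Open points mark an adjusted p of 0.05 or more, which is the case for miR-30b-5p only, and miR-384-5p is the only point to the right of 0.

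No member passed the test between the tumor types. TIM and TI differ in the presence of the MYCN transgene and also in the number of IGF2BP1 transgene alleles. Per the paper, TIM mice also survived for a shorter time than mice with IGF2BP1 at both alleles. It further reports chromosomal gains and losses that differed between the tumor types. Chromosome 4, which holds Mir30e and Mir30c-1, is among the main sites of loss it names for TI. Copy number at these hairpins was not examined here. The parts of all these in any difference cannot be told apart. Of the 7 members 0 passed in limma, where 5.23% of all miRNAs tested did (3.44% higher and 1.79% lower in TIM), 0 had an unadjusted p under 0.05 (22.7% of all), and 0 passed on the recovered reads in edgeR (0.413% of all) or DESeq2 (16.9% of all). Their log2 fold changes ran from -0.50 for miR-30b-5p (95% interval -1.14 to 0.14, limma adjusted p = 0.35) to 0.22 for miR-30e-3p (95% interval -0.30 to 0.73, limma adjusted p = 0.66), and the median was 0.03, beside 0.06 for all miRNAs tested. For miR-30a-5p the difference was -0.27 with a 95% interval from -0.75 to 0.20, so a change of 2-fold in either direction lies outside it. These values depend on the scaling. In CPM without the TMM factor the members' median was 0.59, beside 0.49 for all miRNAs tested, and 1 member, miR-30e-3p, passed at 0.77 (limma adjusted p = 0.027), where 18.9% of all miRNAs tested passed as higher.

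The fall against AG was present under each scaling. With totals taken without miR-148a-3p, the median of the members was -1.28 in TI and -1.16 in TIM, beside 0.31 and 0.53 for all miRNAs tested. In CPM without the TMM factor it was -2.02 and -1.41, beside -0.14 and 0.41. In both comparisons the same 6 members passed as lower under all 3 other scalings, and miR-30b-5p passed under none. Of all miRNAs tested, 30.5% for TI and 27.6% for TIM passed as lower with median ratio scaling, 30.1% and 19.3% without the TMM factor, and 19.4% and 15.2% with totals without miR-148a-3p.

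**Figure D3:**
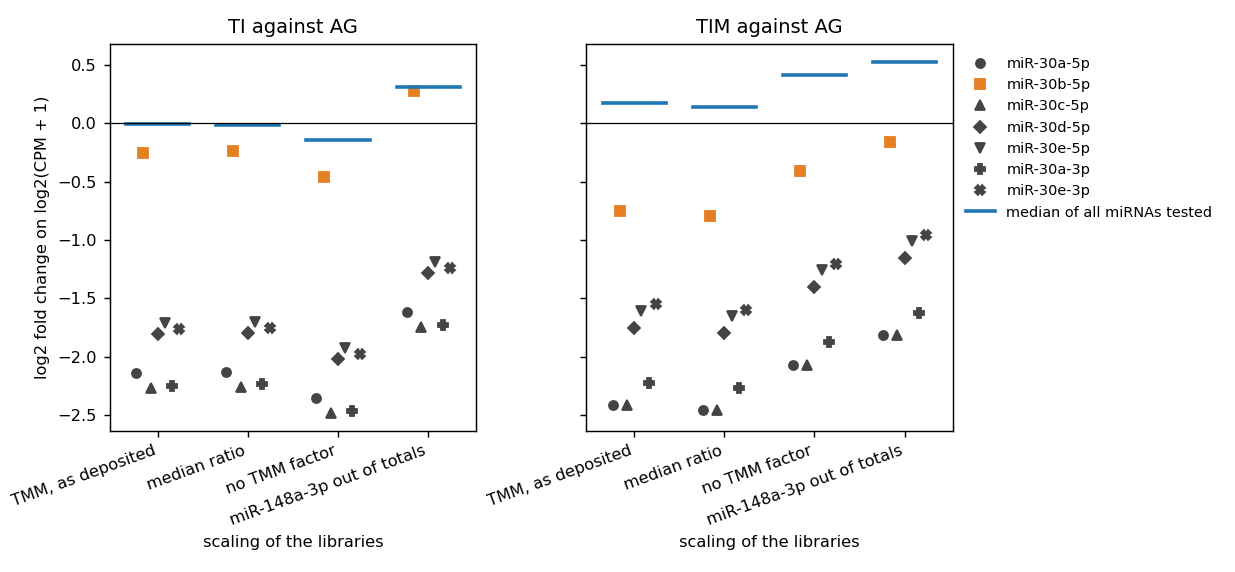
log2 fold change of each member against AG in TI (left) and TIM (right) under 4 scalings of the libraries: the deposited CPM with the TMM factor, median ratio size factors, no TMM factor, and totals without miR-148a-3p. The blue line is the median of all miRNAs tested, which 6 members lie more than 1 log2 unit below in every case, while miR-30b-5p, in orange, lies near it in TI.

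In all 3 groups miR-30a-5p had the highest mean and miR-30d-5p the next. The members are mature strands of like length, and a correction for length was not made, but adapter ligation and amplification can favour some sequences, so the order is one of reads and not of molecules. In AG the order of the means was miR-30a-5p, miR-30d-5p, miR-30c-5p, miR-30e-5p, miR-30a-3p, miR-30e-3p and miR-30b-5p, with each neighbour in that order in all 3 libraries except miR-30c-5p over miR-30e-5p, which held in 2. In TI miR-30a-5p was above miR-30d-5p in 6 of 7 libraries, and miR-30e-5p was above miR-30c-5p in 6 of 7, as in 6 of 8 TIM libraries. By its mean miR-30e-3p was above miR-30a-3p in both tumor types, in 2 of 7 TI and 5 of 8 TIM libraries, while miR-30a-3p was the higher in 3 of 3 AG libraries. In TIM miR-30a-5p was above miR-30d-5p in 5 of 8 libraries with means of 4676 and 4543 CPM, which do not differ beyond their spread. miR-30b-5p was last in AG and in TIM, but in TI its mean of 258 CPM was above those of both 3p strands, 235 and 229 CPM, again within their spread.

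Of the reads on the 5 guides, miR-30a-5p held 46.8% ± 4.2 in AG (SD, n = 3), 41.7% ± 6.9 in TI (SD, n = 7) and 36.9% ± 6.1 in TIM (SD, n = 8). The share of miR-30d-5p was 29.4% ± 1.9 in AG (SD, n = 3), 32.9% ± 4.8 in TI (SD, n = 7) and 36.4% ± 4.2 in TIM (SD, n = 8), and all 8 TIM libraries were above AG. The share of miR-30b-5p was 0.458% to 0.673% in AG, 0.815% to 2.81% in TI and 0.846% to 3.63% in TIM, so all 15 tumor libraries were above AG. The shares of miR-30c-5p and miR-30e-5p overlapped between the groups. Shares of a total are bound to each other, and they were not tested.

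**Figure D4:**
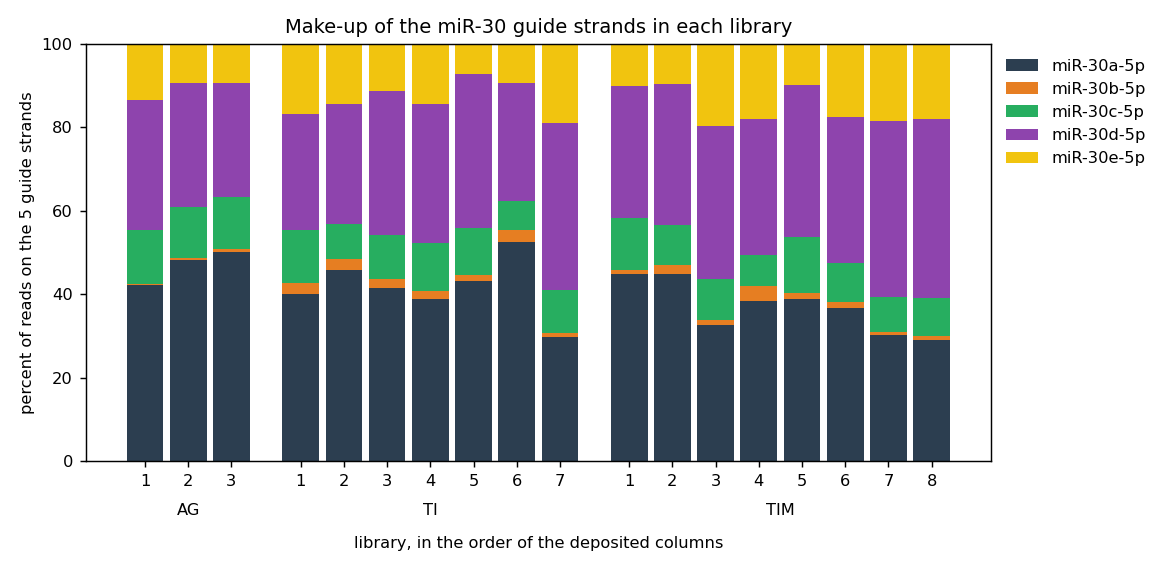
Make-up of the 5 miR-30 guide strands in each of the 18 libraries, as percent of their summed reads, with 1 bar per library in the order of the deposited columns. miR-30a-5p and miR-30d-5p fill most of every bar, and the orange band of miR-30b-5p is wider in all tumor libraries than in AG.

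Ratios of 2 miRNAs within a library do not depend on the scaling, and 3 such ratios were tested in 3 comparisons each, 9 tests in all, with a two-sided exact permutation test. The log2 ratio of miR-30a-5p to miR-30a-3p was 4.47 ± 0.20 in AG (SD, n = 3), 4.59 ± 0.25 in TI (SD, n = 7) and 4.29 ± 0.39 in TIM (SD, n = 8), or group means of 20.2 to 24.3 guide reads per partner read. The 3 differences had exact permutation p of 0.48, 0.45 and 0.11, or 0.73, 0.73 and 0.32 after adjustment over the 9 tests. For miR-30e the log2 ratio was 2.83 ± 0.24 in AG (SD, n = 3), 2.89 ± 0.31 in TI (SD, n = 7) and 2.78 ± 0.51 in TIM (SD, n = 8), and the exact permutation p were 0.80, 0.99 and 0.66, or 0.90, 0.99 and 0.85 after adjustment. None of these 6 differences had an exact permutation p under 0.05, before or after adjustment.

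The third ratio set miR-30d-5p against miR-30b-5p, whose hairpins are neighbours. It was 67.7, 49.0 and 40.6 in AG, from 10.1 to 49.3 in TI with a median of 15.1, and from 8.98 to 49.7 in TIM with a median of 28.1. The AG libraries at 49.0 and 40.6 both lie inside the range of both tumor types. On the log2 scale the difference was -1.56 in TI (exact permutation p = 0.050, adjusted p = 0.225 over the 9 tests) and -0.997 in TIM (exact permutation p = 0.036, adjusted p = 0.225), and between TIM and TI it was 0.56 (exact permutation p = 0.20, adjusted p = 0.46). None passed after adjustment, and the smallest p these designs allow is 0.017 for TI, 0.012 for TIM and 0.00031 between them.

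**Figure D5:**
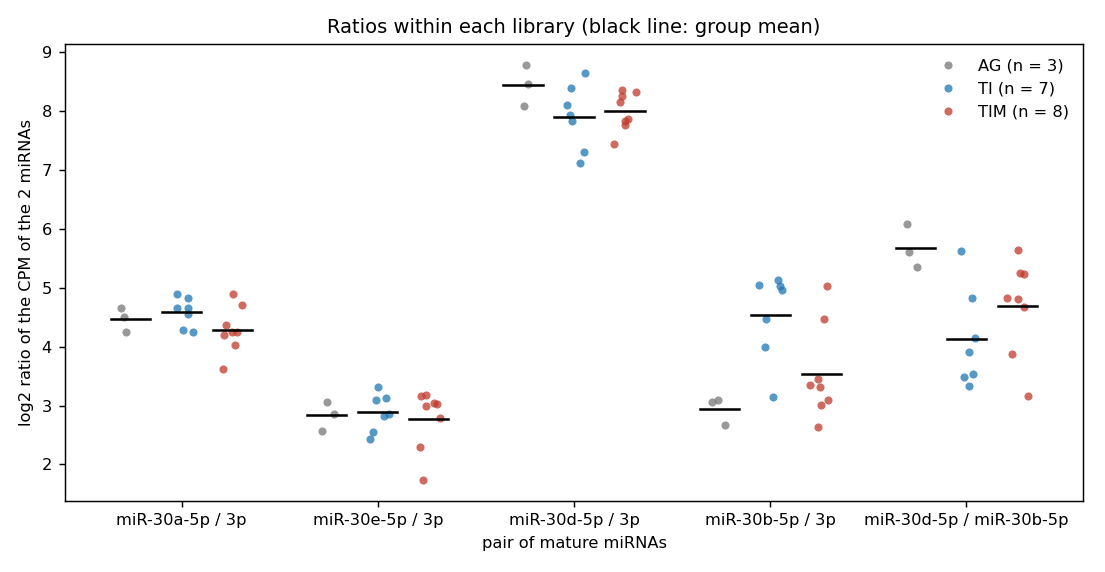
log2 ratio of the CPM of 2 miRNAs in each library, for the guide to partner pairs of miR-30a, miR-30e, miR-30d and miR-30b and for miR-30d-5p over miR-30b-5p, with 1 point per library and a black line at the group mean. For miR-30a and miR-30e the groups overlap, for miR-30b 7 of 7 TI points lie above AG, and for miR-30d-5p over miR-30b-5p most tumor points lie below AG.

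The other strands of the hairpins were lower as well, including the one beside miR-30b-5p. Of 6 related miRNAs, listed as the remaining 3p strands, miR-30f and miR-384-5p, 5 passed the filter. In TI 4 fell and 1 rose, in TIM 4 fell and 1 rose, and between TIM and TI 0 passed in limma, with 0 at an unadjusted p under 0.05, and 0 passed in edgeR or DESeq2. Of all miRNAs tested, 29.3% passed as lower and 26.4% as higher in TI, and 25.9% and 25.5% in TIM. Between TIM and TI, 5.23% of all passed in limma and 22.7% had an unadjusted p under 0.05, while 0.413% passed in edgeR and 16.9% in DESeq2. miR-30b-3p, the partner of miR-30b-5p, was at 38.0 ± 4.6 CPM in AG (SD, n = 3), 10.8 ± 2.9 CPM in TI (SD, n = 7) and 15.03 ± 3.29 CPM in TIM (SD, n = 8), with log2 fold changes of -1.76 (limma adjusted p = 8.3e-05) and -1.30 (limma adjusted p = 0.0012). The ratio of miR-30b-5p to miR-30b-3p, given with no test, was 6.35 to 8.51 in AG, 8.88 to 35.3 in TI and 6.19 to 32.8 in TIM. It was above the AG range in 7 of 7 TI libraries and in 5 of 8 TIM libraries.

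The tumor libraries on either side of the gap in miR-30b-5p also differed in this ratio, a pattern noticed after the values were seen. In the 2 TIM libraries with the most miR-30b-5p, at 383 and 362 CPM, the ratio was 22.2 and 32.8, while in the other 6 it was 6.19 to 10.9. In the seventh TI library, at 120 CPM, the ratio was 8.88, while in the other 6 it was at least 15.98 and at most 35.3. Across the gap, high miR-30b-5p came with a high ratio, but in TI this rests on 1 library. Among the other 6 TI libraries, the one with the least miR-30b-5p, at 218 CPM, had the highest ratio, 35.3. In AG, with miR-30b-5p at 274 to 306 CPM, the ratio was only 6.35 to 8.51. The ratio also contains the same miR-30b-5p reads.

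The pair at Mir30d showed no such split. miR-30d-3p was at 42.7 ± 2.6 CPM in AG (SD, n = 3), 17.8 ± 2.2 CPM in TI (SD, n = 7) and 17.6 ± 3.5 CPM in TIM (SD, n = 8), with log2 fold changes of -1.22 (limma adjusted p = 0.00064) and -1.26 (limma adjusted p = 0.00042). miR-30d-5p stood 273 to 441 times above its partner in AG, 138 to 403 times in TI and 174 to 329 times in TIM, so the ranges overlap.

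The 3p strands of miR-30c tell the hairpins of miR-30c-5p apart. They are shown because the bases after the shared seed, again in capitals and from RefSeq for GRCm38.p6, allow each read to be placed at one locus.
miR-30c-1-3p: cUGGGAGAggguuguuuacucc
miR-30c-2-3p: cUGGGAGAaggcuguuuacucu
miR-30c-2-3p, from the Mir30a locus, was at 210 ± 21.3 CPM in AG (SD, n = 3), 29.1 ± 10.6 CPM in TI (SD, n = 7) and 40.7 ± 19.1 CPM in TIM (SD, n = 8), with log2 fold changes of -2.88 (limma adjusted p = 8.6e-06) and -2.46 (limma adjusted p = 4.2e-05). miR-30c-1-3p, from the Nfyc intron, was at 21.5 ± 6.9 CPM in AG (SD, n = 3), 5.68 ± 2.91 CPM in TI (SD, n = 7) and 7.94 ± 1.89 CPM in TIM (SD, n = 8), with log2 fold changes of -1.84 (limma adjusted p = 0.00056) and -1.32 (limma adjusted p = 0.0070). Without the first AG library the change of miR-30c-1-3p in TIM was -1.08 and no longer passed (limma adjusted p = 0.062), which leaves 3 related strands that fell there. Both were below AG in all 15 tumor libraries. The ratio of miR-30c-2-3p to miR-30c-1-3p was 7.96 to 11.4 in AG, 3.36 to 13.1 in TI and 2.66 to 11.8 in TIM, which overlap.

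miR-384-5p, which shares the seed printed above and comes from the X chromosome, rose where the family fell. It was at 8.60, 15.1 and 15.6 CPM in AG, from 35.5 to 165 CPM in TI with a median of 95.4, and from 41.7 to 202 CPM in TIM with a median of 70.0. All 15 tumor libraries were above AG, as in 22% of all miRNAs tested for TI and 21.1% for TIM. On log2(CPM + 1) the difference was 2.77 in TI (SE 0.46, limma adjusted p = 7.5e-05) and 2.55 in TIM (SE 0.45, limma adjusted p = 0.00014), where 26.4% and 25.5% of all miRNAs tested were higher. Its part of all reads on this seed, counting the 5 guides and miR-384-5p, stayed small, at 0.014% to 0.034% in AG, 0.240% to 1.62% in TI and 0.404% to 1.19% in TIM. miR-30f, whose hairpin lies opposite Mir30e, had 0 to 3 reads in a library and 0 in 7 libraries, and was not tested.

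Across the 18 libraries the members moved together except for miR-30b-5p. Pearson's r of log2(CPM + 1) with miR-30a-5p was 0.94 for miR-30c-5p, 0.94 for miR-30a-3p and 0.89 for miR-30d-5p, 0.75 for miR-30e-3p, 0.72 for miR-30e-5p and 0.49 for miR-30b-5p. These values hold the difference between AG and the tumors, and all points of a library share its scaling. With the group means subtracted, r was 0.74 for miR-30a-3p, 0.72 for miR-30c-5p and 0.57 for miR-30d-5p, but 0.11 for miR-30e-5p and 0.06 for miR-30e-3p, the strands of the Nfyc intron, which had an r of 0.69 with each other. The highest value between members within groups was 0.81, for miR-30c-5p with miR-30a-3p. miR-30b-5p had an r between -0.30 and 0.44 with the other members within groups, and, as a pair chosen after the values were seen, an r of 0.65 with miR-384-5p.

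Among miRNAs other than the 7 members, those most like miR-30a-5p over the 18 libraries, out of 393 with a mean of 10 CPM or more, were miR-10a-3p (r = 0.94), miR-365-3p (0.94), miR-30c-2-3p (0.93), let-7g-5p (0.93) and let-7e-3p (0.92). With the group means subtracted they were miR-30c-2-3p (r = 0.87), miR-125a-5p (0.77), miR-10a-3p (0.74), miR-671-5p (0.73) and let-7e-3p (0.72). miR-30c-2-3p, made 19361 bases from Mir30a on the same strand, is thus first within groups and among the 5 highest over all libraries. These are descriptions over libraries that share their scaling, with no test.

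Markers of some other cell types were lower in the tumors, while others overlapped with AG in TI or in both tumor types. The 2 endothelial markers miR-126a-3p and miR-126a-5p summed to 38529 to 46092 CPM in AG, 1704 to 6736 CPM in TI and 2428 to 8943 CPM in TIM. The 4 leukocyte markers summed to 414 to 602 CPM in AG, 51.1 to 333 CPM in TI and 67.5 to 212 CPM in TIM, and the 6 epithelial and kidney markers to 2831 to 4840, 288 to 1991 and 496 to 999 CPM. The liver marker miR-122-5p was at 780 to 2592 CPM in AG, 4.68 to 48.1 CPM in TI and 4.25 to 82.4 CPM in TIM. In these 4 sums all tumor libraries lie below AG, as they do for the 6 members. Of all miRNAs tested, taken singly, 24.4% lay wholly below AG in TI and 22% in TIM. Marker by marker, all tumor libraries lay below AG for both endothelial markers, miR-122-5p and 3 of the 4 leukocyte markers (miR-142a-3p overlapped). They also did for 2 of the 6 epithelial and kidney markers, miR-192-5p, which makes up most of that sum, and miR-194-5p. The other 4, miR-200a-3p, miR-200b-3p, miR-200c-3p and miR-141-3p, overlapped, with miR-200c-3p at 4.35 to 5.41 CPM in AG, 2.18 to 128 CPM in TI and 1.88 to 44.2 CPM in TIM. The 4 smooth muscle and stroma markers summed to 122850 to 210440 CPM in AG, 16039 to 171480 CPM in TI and 16156 to 101730 CPM in TIM. That sum overlapped with AG in TI, while every TIM library lay below AG. Of these markers, miR-199a-3p lay wholly below AG in both tumor types, at 1200.5 to 1513.9, 220.8 to 790.5 and 121.65 to 728.3 CPM. miR-143-3p did so in TIM only, and miR-145a-5p and miR-214-3p overlapped in both. The 2 erythroid markers (516 to 1891, 222 to 3649 and 94.6 to 2056 CPM in AG, TI and TIM) overlapped with AG in both tumor types. So did the 3 skeletal muscle markers (175 to 207, 46.6 to 344 and 77.4 to 22972 CPM). Throughout a group, 0 markers of any list were at 0. The part of these cell types in the fall of the members was not tested.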

How the data were processed

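Per the labels and the paper's methods, the authors trimmed small RNA reads with cutadapt 2.8, aligned them with Bowtie2 2.3.5.1 to mm10, counted them with featureCounts 2.0.0 and normalized them with edgeR 3.40. The deposited signal is CPM on library totals multiplied by the TMM factor, and 9 columns with the authors' log2 fold changes, p-values and FDR were not used. Divided by what 1 read is worth in its library, 100% of the values came out whole (tolerance 0.001 reads), and the reads were recovered from this. Depths of 11641696 to 23435621 reads set the precision, and 3 reads equal 0.101 to 0.272 CPM.

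Differences were tested with limma 3.58.1 (lmFit and eBayes with trend, R 4.3.3) on log2(CPM + 1), with 18 libraries in one model, for the 726 miRNAs that reached 1 CPM in 3 or more libraries. Calls needed a Benjamini-Hochberg adjusted p under 0.05. Fold changes are on that scale and understate those of low miRNAs. Log2 ratios were compared with two-sided exact permutation tests that double the smaller tail (Python 3.11.15, scipy 1.17.1). The limma fit was tried on simulated reads, and the permutation test on made-up values with a known p. Alternatives were other pseudocounts (0.1 and 5), scalings and filters, 2 groups per model, edgeR 4.0.16 and DESeq2 1.42.0 on the recovered reads, and fits that leave out each library in turn. Libraries of a group are separate samples by their labels, which do not say whether tumors came from separate mice. The paper counts as many IGF2BP1 tumors as mice that bore them, but more IGF2BP1/MYCN tumors than mice. The number of mice may thus be lower than n, above all in TIM. None of 52 pairs within a group held identical values. The closest TIM pair, libraries 3 and 6, differed with a chi-square of 587 per degree of freedom and was kept as 2 samples.

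The members, related miRNAs and marker lists were chosen with earlier results of these data known. The miRNAs named are the members, the other arms of their hairpins, miR-30f, table entries with the seed of miR-30a-5p, and the 5 most like the most abundant member over all libraries and within groups. Sequences and coordinates are from RefSeq for GRCm38.p6. The strand and the Nfyc intron come from GENCODE for a later build.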

Additional observations from a re-analysis of the deposited data

How the results depend on the processing

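In TI and in TIM against AG, 6 members were lower under all 10 alternatives that keep every library, and with 1 library left out their number was 6 in TI and 6 or 7 in TIM, the seventh being miR-30b-5p without the second TIM library (-0.92, limma adjusted p = 0.043). miR-30b-5p in TI reversed to 0.27 with miR-148a-3p out of the totals. Between TIM and TI, 1 member passed without the TMM factor and 0 in all leave-one-out fits. Reversed there were miR-30a-5p (0.29), miR-30b-5p (0.056) and miR-30c-5p (0.42) without the TMM factor, miR-30d-5p with median ratio scaling (-0.0055) and DESeq2 (-0.021), and miR-30a-3p with median ratio scaling (-0.033). In leave-one-out fits these differences ran from -0.11 to 0.15 for miR-30a-3p, from -0.10 to 0.16 for miR-30d-5p and from -0.088 to 0.24 for miR-30e-5p. The log2 ratio of miR-30e-5p to miR-30e-3p, taken as a difference of medians, was -0.012 in TI, 0.15 in TIM and 0.16 between them, each of the other sign than the means. Leaving out 1 library it ran from -0.073 to 0.17, from -0.18 to 0.095 and from -0.18 to 0.040. Of all miRNAs tested, 405 passed in TI and 373 in TIM against AG. One library left out gave 294 to 431 and 227 to 383, with 227 without the first AG library. In TI 192 were higher and 213 lower, but 222 and 150 with miR-148a-3p out of the totals, and in TIM 185 and 188, but 233 and 118. Between TIM and TI 38 passed, but 21 with a pseudocount of 5, 155 without the TMM factor, 17 at 10 CPM or more, 24 with 2 groups in the model, 3 in edgeR and 123 in DESeq2. One library left out gave 24 to 68, with 68 without TI library 7, 62 without TI library 4, 24 without TI library 1, 2 or 6, and 25 without TIM library 6. There, 25 were higher and 13 lower, but 138 and 17 without the TMM factor and 28 and 28 with median ratio scaling. The cause of these moves was not tested. No paired analysis was made, since AG, TI and TIM come from mice of different genotypes and the deposited columns carry no replicate numbers. With 3 AG libraries, the 95% interval of miR-30b-5p in TI spans -1.10 to 0.60, which includes a 2-fold fall.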
